A study of Homo sapiens with 4 samples.

Results

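The nuclear end of the Wnt pathway was described in SW480 cells through 9 genes. They were the 4 TCF/LEF transcription factors (LEF1, TCF7, TCF7L1 and TCF7L2), the 3 beta-catenin coactivators BCL9, BCL9L and PYGO2, and the 2 Groucho/TLE corepressors TLE1 and TLE3. They were taken by gene symbol, and each of the 9 was among the 19192 genes counted in every library. SW480 is an established human colorectal adenocarcinoma line. Its cells were labelled either IMP1-/- (knockout of IGF2BP1, the gene of the RNA-binding protein IMP1) or wild type, and the study compared their total RNA and their ribosome-protected fragments (RPF, the mRNA pieces that a translating ribosome shields from nuclease). There were 4 libraries, 1 for each genotype and kind, each made from 3 pooled culture plates. Whether the knockout line was 1 clone is not given in the sources used here, and genotype, clone and culture cannot be told apart. For total RNA from wild-type cells, one label names the line as SW840, while its source name and all labels of the other libraries give SW480.

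In canonical Wnt signalling, beta-catenin that escapes its destruction complex enters the nucleus and binds TCF/LEF factors on Wnt-responsive enhancers. BCL9 or BCL9L then bridges beta-catenin to a Pygopus protein, which reads methylated histone H3, while in the absence of beta-catenin the same DNA-bound factors recruit Groucho/TLE proteins and keep the target genes silent. SW480 carries a truncated APC protein, and the pathway is constitutively active in this line. LEF1 and TCF7 are themselves known Wnt target genes, and both also have shorter forms that lack the beta-catenin binding domain and act as natural antagonists.

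Promoter windows of RefSeq (GRCh38.p14, from 250 bases before to 50 after an annotated start) were matched for 8 of the 9 genes, 13 windows in all. BCL9L had no window. A TCF/LEF motif was searched on both strands in 4 spellings: the first was CTTTGAA, the next was CTTTGAT, another was CTTTGTA and the last was CTTTGTT. They cannot overlap one another on the same strand. It was found in 2 of the 13 windows, once in each, while 4829 of all 35116 windows of this length held it (13.8%). The windows shown are those of TCF7 and TCF7L2 that hold the motif and, for comparison, that of LEF1, the measured factor whose RNA and footprint changes differed most. They lie at chr4:108166252-108166551 (minus strand) for LEF1, chr5:134123368-134123667 (plus strand) for TCF7 and chr10:113126383-113126682 (plus strand) for TCF7L2. Each lies inside the transcript listed for its gene, so the start it belongs to is downstream of that transcript's own start. Capitals mark the motif. In TCF7 it is CTTTGTT on the opposite strand, beginning at position −50 from the start, and in TCF7L2 it is CTTTGTT on the strand shown, at −133. The LEF1 window holds none of the 4 spellings.
LEF1: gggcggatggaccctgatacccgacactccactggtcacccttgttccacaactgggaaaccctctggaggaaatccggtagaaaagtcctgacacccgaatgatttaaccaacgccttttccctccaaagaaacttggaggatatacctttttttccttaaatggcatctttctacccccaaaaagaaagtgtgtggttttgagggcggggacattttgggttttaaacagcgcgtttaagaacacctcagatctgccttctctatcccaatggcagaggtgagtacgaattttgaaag
TCF7: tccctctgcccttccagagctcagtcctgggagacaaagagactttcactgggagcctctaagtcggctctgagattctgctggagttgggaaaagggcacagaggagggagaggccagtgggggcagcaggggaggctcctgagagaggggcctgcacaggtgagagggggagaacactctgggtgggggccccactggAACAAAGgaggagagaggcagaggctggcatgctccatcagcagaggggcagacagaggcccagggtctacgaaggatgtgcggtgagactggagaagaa
TCF7L2: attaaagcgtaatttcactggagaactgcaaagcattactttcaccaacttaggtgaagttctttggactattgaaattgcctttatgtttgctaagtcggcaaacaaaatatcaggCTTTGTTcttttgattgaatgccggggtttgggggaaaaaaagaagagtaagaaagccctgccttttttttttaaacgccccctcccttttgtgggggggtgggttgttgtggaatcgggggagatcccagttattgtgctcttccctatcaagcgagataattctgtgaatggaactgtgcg

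The libraries held 4932388 (knockout-labelled RNA), 5551479 (wild-type RNA), 3778316 (knockout-labelled RPF) and 3782874 (wild-type RPF) counts. IGF2BP1, the gene named as deleted, had 571 reads in knockout-labelled RNA and 598 in wild-type RNA, and 149 reads in knockout-labelled RPF against 285 in wild-type RPF. Its RNA therefore did not mark the label, and every direction here is between the library labelled knockout and the library labelled wild type. Among 8 markers of intestinal epithelium, 7 had reads in both RNA libraries, with KRT20 at 0 in all 4 libraries. They summed to 5636 CPM (counts scaled per 1000000) in knockout-labelled RNA and 8382 CPM in wild-type RNA, and to 20302 CPM in knockout-labelled RPF and 25403 CPM in wild-type RPF, mostly KRT8 and KRT18. Single markers went both ways in RNA: CDH1 had 286 reads in the knockout-labelled library and 83 in wild type, VIL1 had 2 against 160 in wild type, and CDX2 had 103 against 268 in wild type. The part of these differences in the results below was not tested. TCF7 and LEF1 are also known as T lymphocyte factors. The 8 T lymphocyte markers summed to 3.62 CPM in knockout-labelled RNA and 2.54 CPM in wild-type RNA, with PTPRC, CD3D, CD3E and CD2 at 0 in each of the 4 libraries. The 7 fibroblast markers in the files summed to 6.04 CPM in knockout-labelled RNA and 2.18 CPM in wild-type RNA, with DCN at 0 in all 4 libraries. With 1 library per group there was no replicate check and no test. Intervals below are 95% counting intervals, which treat reads as independent and cover counting error only, not variation between cultures. Reads copied by PCR are not independent molecules, so where such copies were counted the intervals are too narrow even for counting error. A gene was called when it had at least 50 reads over the 2 libraries of a kind, differed at least 1.5-fold, and had an interval that excluded no change.

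LEF1 RNA was lower in the knockout-labelled library while its footprints were not. LEF1 (ENST00000265165, chromosome 4, 108047545 to 108168422, minus strand, GRCh38), an activator-type factor of the family, had 154 RNA reads in the knockout-labelled library and 382 in wild type. This was 2.23-fold lower (log2 −1.16, interval −1.44 to −0.89). Its footprints numbered 130 in the knockout-labelled library and 122 in wild type, a log2 change of 0.09 (−0.28 to 0.46). LEF1 thus had 44.9% of the wild-type RNA level beside a footprint difference whose interval included no change. Its translational efficiency (TE, footprints relative to RNA) was 2.37-fold higher in the knockout-labelled cells, at log2 1.25 (0.80 to 1.69). That placed LEF1 at percentile 96.1 of TE change among the 9598 genes measured in both kinds. In a bulk culture, fewer cells carrying a transcript and less of it per cell cannot be told apart.

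TCF7 was lower in both measurements. TCF7 (ENST00000342854, chromosome 5, 134114711 to 134147997, plus strand), which encodes TCF1, had 133 RNA reads in the knockout-labelled library and 394 in wild type, 2.66-fold lower (log2 −1.41, −1.71 to −1.13). Its footprints numbered 40 in the knockout-labelled library and 108 in wild type, 2.68-fold lower (log2 −1.42, −1.995 to −0.90). Its TE change was −0.01 (−0.60 to 0.58), so the footprint count followed the RNA count within counting error. The RNA changes of LEF1 and TCF7 differed by 0.26 log2 (−0.14 to 0.65), an interval that includes no difference. Their footprint changes differed by 1.51 log2 (0.88 to 2.14), and their TE changes by 1.26 (0.52 to 1.9996). Such differences between 2 genes of the same libraries do not depend on how the libraries are scaled.

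TCF7L2 and TCF7L1 were not called in RNA. TCF7L2 (ENST00000369397, chromosome 10, 112950452 to 113167678, plus strand) encodes TCF4, the main TCF of intestinal crypts. It had 124 RNA reads in the knockout-labelled library and 185 in wild type (log2 −0.42, −0.77 to −0.09), and 73 footprints in the knockout-labelled library against 81 in wild type (log2 −0.15, −0.63 to 0.32). Its RNA interval excluded no change but the difference, 1.34-fold, was smaller than 1.5-fold. TCF7L1 (ENST00000282111, chromosome 2, 85133410 to 85310388, plus strand), which encodes TCF3 and is known mainly as a repressor, was the scarcest of the 4 factors. It had 26 RNA reads in the knockout-labelled library and 29 in wild type (log2 −0.0035, −0.83 to 0.81). Its footprints numbered 3 in the knockout-labelled library and 18 in wild type, too few for a call, with a log2 ratio of −2.40 (−4.99 to −0.81).

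**Figure D1:**
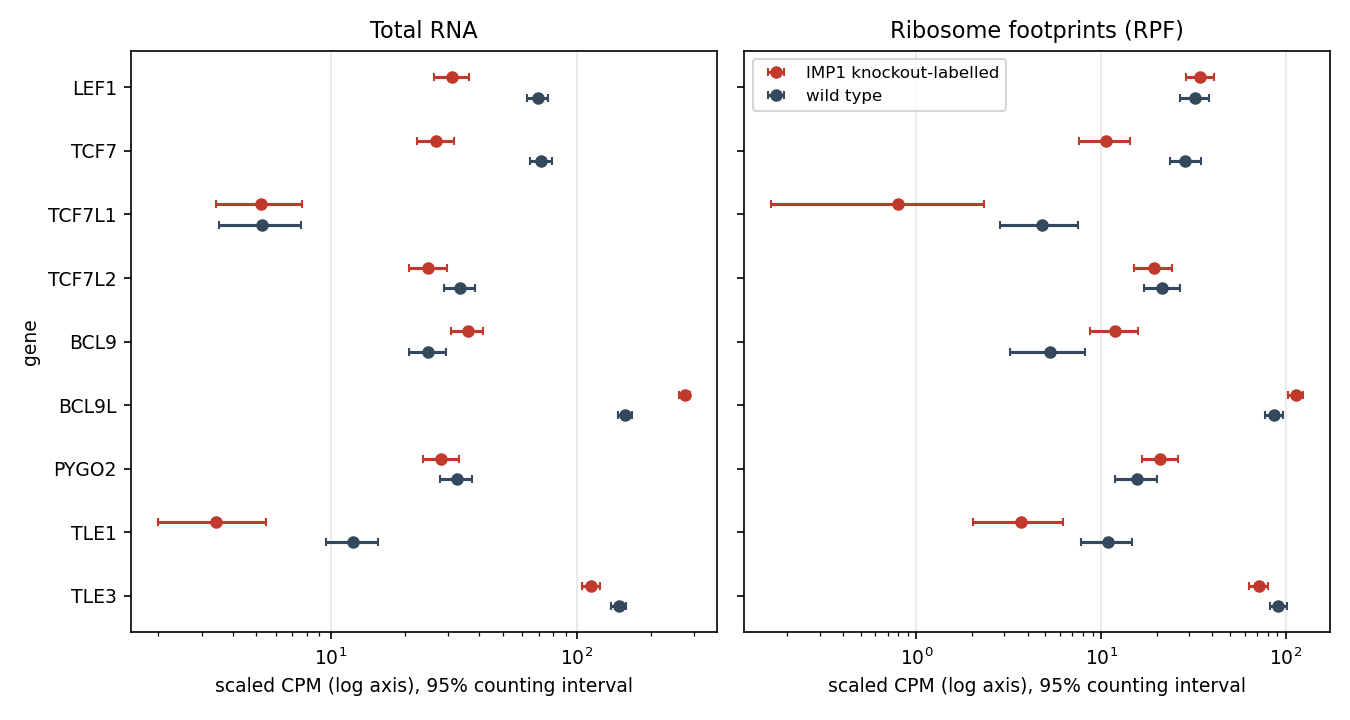
CPM (log axis) of the 9 genes in total RNA (left) and ribosome footprints (right), for the knockout-labelled library (red, upper point) and the wild-type library (dark, lower point), with 95% counting intervals. The intervals of LEF1, TCF7, BCL9, BCL9L, TLE1 and TLE3 lie apart from wild type in RNA. In footprints those of TCF7 (40 reads in knockout-labelled RPF and 108 in wild-type RPF), TCF7L1, BCL9, BCL9L, TLE1 and TLE3 do, and that of LEF1 does not.

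The make-up of the family differed between the libraries. Reads of the 4 TCF/LEF factors together numbered 437 in knockout-labelled RNA and 990 in wild-type RNA, 2.04-fold lower (log2 −1.03, −1.19 to −0.86). In footprints they numbered 246 in the knockout-labelled library and 329 in wild type, 1.34-fold lower (log2 −0.42, −0.66 to −0.18). TCF7L2 took 28.4% of TCF/LEF reads in knockout-labelled RNA (exact binomial interval 24.2 to 32.9) and 18.7% in wild-type RNA (16.3 to 21.3). TCF7 took 30.4% in knockout-labelled RNA (26.2 to 35.0) and 39.8% in wild-type RNA (36.7 to 42.9). The LEF1 share was 35.2% in knockout-labelled RNA (30.8 to 39.9) and 38.6% in wild-type RNA (35.5 to 41.7), with overlapping intervals.

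LEF1 made up more of the TCF/LEF footprints in the knockout-labelled library than in wild type, beside fewer footprints of TCF7. LEF1 took 52.8% of TCF/LEF footprints in the knockout-labelled library (46.4 to 59.2) and 37.1% in wild type (31.8 to 42.6). TCF7 took 16.3% in the knockout-labelled library (11.9 to 21.5) and 32.8% in wild type (27.8 to 38.2). Neither pair of intervals overlapped. The shares sum to 100%, so they do not move separately: LEF1 itself had 34.4 CPM of footprints in the knockout-labelled library and 32.3 CPM in wild type, while TCF7 had 10.6 CPM in the knockout-labelled library and 28.6 CPM in wild type. Together LEF1 and TCF7 took 69.1% of footprints in the knockout-labelled library (62.9 to 74.8) and 69.9% in wild type (64.6 to 74.8). Read counts do not separate full-length from shorter forms: GENCODE release 29 lists 6 coding transcripts for LEF1, 14 for TCF7, 2 for TCF7L1 and 21 for TCF7L2, and the files give 1 count per gene.

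**Figure D2:**
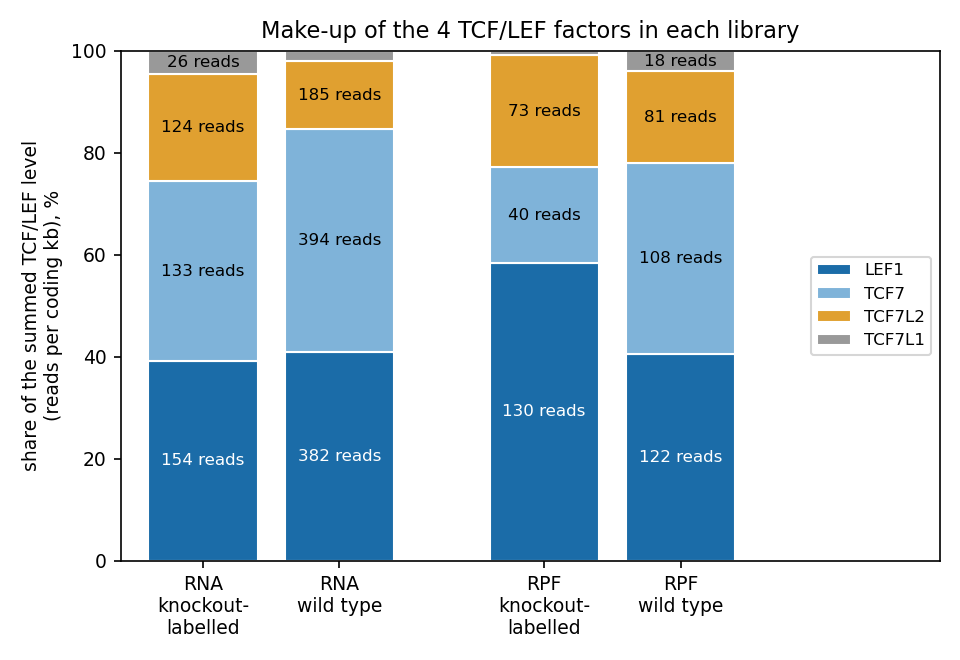
Share of each TCF/LEF factor in the summed TCF/LEF level (reads per kilobase of coding sequence, %) in RNA and RPF libraries, knockout-labelled left of wild type, with read counts written in the larger segments. The LEF1 segment is 58.4% of the footprint level in the knockout-labelled library and 40.6% in wild type.

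Of the 3 coactivators, BCL9L was called higher in RNA only, BCL9 in footprints only and PYGO2 in TE only. BCL9L (ENST00000334801, chromosome 11, 118893875 to 118910904, minus strand), one of the paired adaptors that hold beta-catenin and Pygopus together, was the most deeply counted of the 9 genes in RNA. It had 1358 RNA reads in the knockout-labelled library and 864 in wild type, 1.75-fold higher (log2 0.80, 0.68 to 0.93). Its footprints numbered 426 in the knockout-labelled library and 325 in wild type, 1.31-fold higher (log2 0.39, 0.18 to 0.60). The footprint increase of BCL9L was smaller than its RNA increase, and its TE change was −0.41 (−0.66 to −0.17), short of a call.

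BCL9 (ENST00000234739, chromosome 1, 147541412 to 147626216, plus strand), the paralog of BCL9L, had 179 RNA reads in the knockout-labelled library and 137 in wild type. This was 1.45-fold higher (log2 0.54, 0.21 to 0.87), just short of the fold required. Its footprints were few, 45 in the knockout-labelled library and 20 in wild type, and were called at 2.22-fold higher (log2 1.15, 0.38 to 2.01). BCL9 and BCL9L did not differ beyond counting error in RNA change, by −0.27 log2 (−0.61 to 0.08), or in footprint change, by 0.76 (−0.02 to 1.54). Their TE changes differed by 1.03 log2 (0.18 to 1.88).

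PYGO2 (ENST00000368457, chromosome 1, 154957026 to 154961748, minus strand) encodes the histone-reading Pygopus protein. It had 140 RNA reads in the knockout-labelled library and 179 in wild type (log2 −0.20, −0.53 to 0.12), and 79 footprints in the knockout-labelled library against 59 in wild type (log2 0.42, −0.08 to 0.93). Neither interval excluded no change, and the 2 differences had opposite signs. Its TE change was called at 1.54-fold higher (log2 0.62, 0.04 to 1.20), with a lower bound close to no change. Its paralog PYGO1 had 0 reads in each of the 4 libraries, which allows up to 0.608 CPM in knockout-labelled RNA, 0.540 CPM in wild-type RNA, 0.794 CPM in knockout-labelled RPF and 0.793 CPM in wild-type RPF. Summed over BCL9, BCL9L and PYGO2, RNA reads numbered 1677 in the knockout-labelled library and 1180 in wild type (1.58-fold higher), mostly BCL9L. Their summed footprints numbered 550 in the knockout-labelled library and 404 in wild type (1.36-fold higher, log2 0.44, 0.26 to 0.63).

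Both Groucho/TLE corepressors had lower values in the knockout-labelled libraries, and TLE1 was called. TLE1 (ENST00000376499, chromosome 9, 81583683 to 81689305, minus strand) had 17 RNA reads in the knockout-labelled library and 68 in wild type, 3.52-fold lower (log2 −1.82, −2.71 to −1.07). Its footprints numbered 14 in the knockout-labelled library and 41 in wild type, 2.86-fold lower (log2 −1.52, −2.54 to −0.65). These are low counts and the intervals are wide. TLE3 (ENST00000558939, chromosome 15, 70047790 to 70098176, minus strand), the abundant member of the pair, had 568 RNA reads in the knockout-labelled library and 815 in wild type (log2 −0.37, −0.53 to −0.21). Its footprints numbered 270 in the knockout-labelled library and 344 in wild type (log2 −0.35, −0.59 to −0.12), so RNA and footprints of TLE3 were lower by nearly the same amount, under 1.5-fold. The change of TLE1 relative to TLE3 was −1.45 log2 in RNA (−2.22 to −0.68) and −1.17 in footprints (−2.06 to −0.28).

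**Figure D3:**
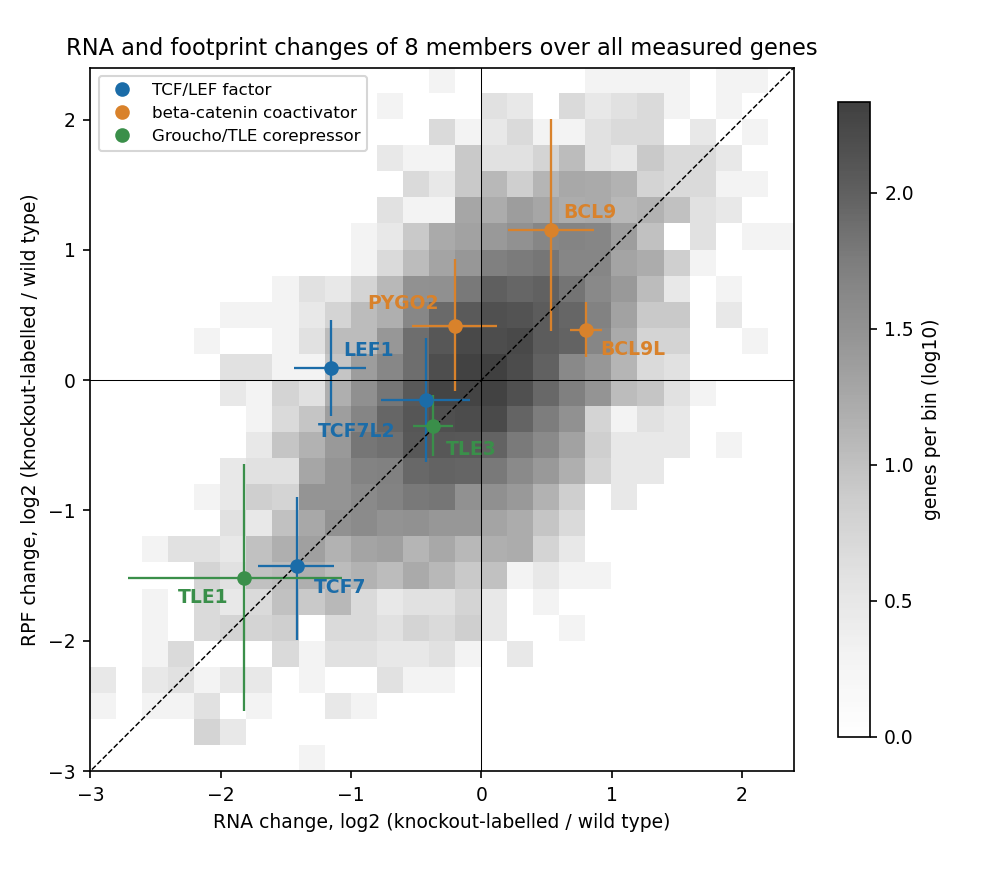
RNA change (x axis) and RPF change (y axis), both log2 of knockout-labelled over wild type, for the 8 genes with at least 50 reads in both kinds, with 95% counting intervals over a grey density of all measured genes; the dashed line marks equal change. TCF7 and TLE1 sit low on the line, and LEF1 sits above it (RNA −1.16, footprints 0.09).

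Of the 9 genes, 3 were called lower in RNA (LEF1, TCF7 and TLE1), while 17.8% of the 10875 genes measured were. One, BCL9L, was called higher, against a background of 16.2%. In footprints, where 8 of the 9 were measured, TCF7 and TLE1 were called lower (background 20.1%) and BCL9 higher (background 19.0%). In TE, LEF1 and PYGO2 were called higher (background 15.7%) and 0 of 8 lower (background 13.9%). Counts this small do not set the 9 genes apart from the background. The median change over the measured members was −0.37 in RNA, −0.03 in footprints and 0.29 in TE, beside −0.01, −0.00065 and 0.03 over all measured genes. Of the 28 pairs among the 8 genes measured in both kinds, 21 had different RNA changes beyond counting error, 19 different footprint changes and 8 different TE changes, with intervals not adjusted for the number of pairs. Pairs of all measured genes were not counted, so the pair counts do not set these genes apart either.

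Levels were ordered by RPKM (CPM per kilobase of coding sequence), to set genes of different length side by side. The region counted is not given, so the orders and their counting intervals hold for coding length only. Per kilobase of whole transcript in knockout-labelled RNA, PYGO2 (8.96) stood above TCF7 (8.80), and TCF7L2 (6.57) stood closer to BCL9 (5.74). In knockout-labelled RNA the order was BCL9L (60.8 RPKM), TLE3 (49.4), LEF1 (25.9), TCF7 (23.3), PYGO2 (23.1), TCF7L2 (14.0), BCL9 (8.43), TCF7L1 (2.97) and TLE1 (1.48). LEF1 and TCF7, and TCF7 and PYGO2, were neighbours that did not differ beyond counting error. In wild-type RNA it was TLE3 (63.8 RPKM), TCF7 (62.0), LEF1 (57.9), BCL9L (34.8), PYGO2 (26.7), TCF7L2 (18.8), BCL9 (5.81), TLE1 (5.34) and TCF7L1 (2.98). There, the neighbours TLE3 and TCF7, TCF7 and LEF1, and BCL9 and TLE1 did not differ beyond counting error. BCL9L was thus first in the knockout-labelled library and stood behind TLE3, TCF7 and LEF1 in wild type.

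In knockout-labelled RPF the order was TLE3 (30.8 RPKM), LEF1 (28.7), BCL9L (25.1), PYGO2 (17.2), TCF7L2 (10.8), TCF7 (9.18), BCL9 (2.78), TLE1 (1.60) and TCF7L1 (0.450). The neighbours that did not differ beyond counting error were TLE3 and LEF1, LEF1 and BCL9L, TCF7L2 and TCF7, BCL9 and TLE1, and TLE1 and TCF7L1. Genes further apart in the order were not compared. In wild-type RPF it was TLE3 (39.3 RPKM), LEF1 (27.0), TCF7 (24.8), BCL9L (19.1), PYGO2 (12.8), TCF7L2 (12.0), TLE1 (4.70), TCF7L1 (2.70) and BCL9 (1.24). TLE3 led LEF1 beyond counting error there, by a ratio of 1.46 (1.18 to 1.81). LEF1 and TCF7, PYGO2 and TCF7L2, and TLE1 and TCF7L1 were neighbours that did not differ.

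Most of the 9 genes carried few footprints for their RNA. As a log2 level minus the median of 9598 genes, TE in the knockout-labelled cells was 0.01 for LEF1 (−0.33 to 0.35, percentile 50.4) and −1.47 for TCF7 (−1.98 to −0.96, percentile 11.5). In wild-type cells it was −1.20 for LEF1 (−1.50 to −0.91, percentile 13.8) and −1.42 for TCF7 (−1.73 to −1.12, percentile 10.3). LEF1 and TCF7 were therefore close to each other in wild-type cells and apart in knockout-labelled cells. BCL9 had a TE level of −1.73 in knockout-labelled cells (−2.20 to −1.26, percentile 8.25) and −2.31 in wild-type cells (−2.98 to −1.64, percentile 2.53). These were the lowest values of the 8 measured genes, but in both genotypes the BCL9 interval overlapped that of TCF7. BCL9L stood at −1.42 in knockout-labelled cells and −0.97 in wild-type cells, and TLE3 at −0.82 in knockout-labelled cells and −0.80 in wild-type cells. In wild-type cells the 8 measured genes all lay below the median, though the TLE1 interval (−0.84 to 0.27) included it. Which region of a transcript was counted is not given, and over all measured genes the log2 ratio of RNA to RPF reads increased with log2 transcript over coding length (slope 0.349 in knockout-labelled cells and 0.340 in wild-type cells). BCL9L has 4543 bases of 3′ and 965 of 5′ untranslated sequence beside 4497 coding bases, and TCF7 has 1697 and 196 beside 1152. The part of this length in the TE levels was not tested.

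**Figure D4:**
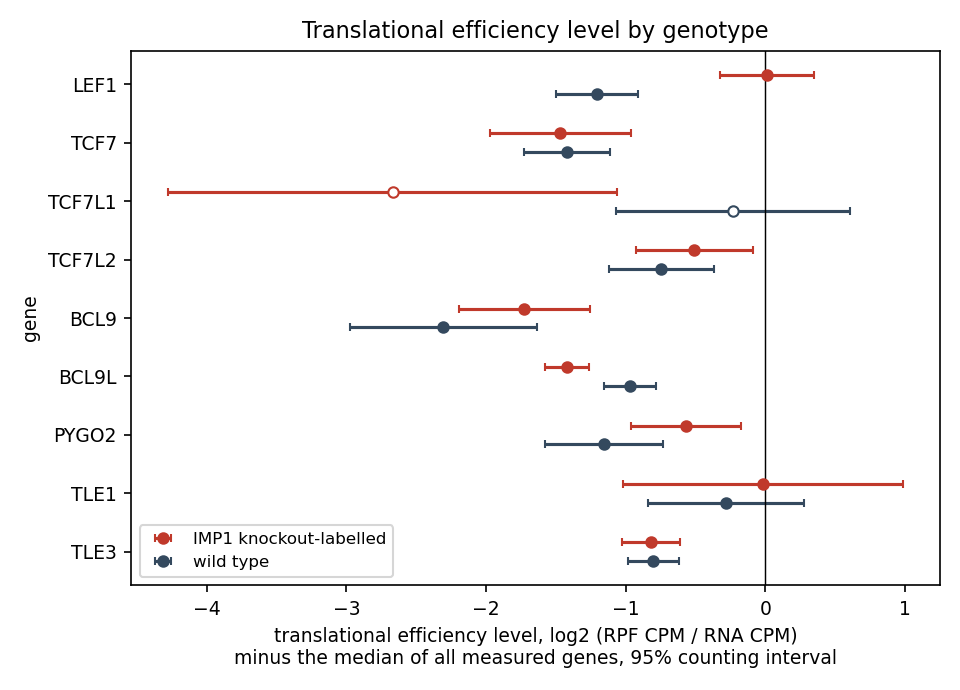
Translational efficiency level (log2 of RPF CPM over RNA CPM, minus the median of all measured genes) of the 9 genes in knockout-labelled cells (red, upper) and wild-type cells (dark, lower), with 95% counting intervals; open points mark TCF7L1, with under 50 footprints. LEF1 lies at 0.01 in knockout-labelled cells and −1.20 in wild-type cells, while the TCF7 and TLE3 points nearly coincide.

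None of the other coactivators measured was called higher. Of 19 other coactivators listed, 17 were measured, with 0 called higher and 4 lower in RNA (median −0.20), and 0 higher and 7 lower in footprints (median −0.48). Over all genes, 16.2% were called higher and 17.8% lower in RNA, and 19.0% higher and 20.1% lower in footprints. CTNNB1, which encodes beta-catenin itself, had 1481 RNA reads in the knockout-labelled library and 3411 in wild type (log2 −1.05, −1.14 to −0.96), and 3251 footprints against 8613 in wild type (log2 −1.41, −1.46 to −1.35). CDK8, the kinase of the Mediator complex, had 354 RNA reads in the knockout-labelled library and 1240 in wild type (3.15-fold lower), and 216 footprints against 784 in wild type (3.63-fold lower). The chromatin remodeller SMARCA4 was 1.91-fold lower in RNA, at 401 reads in the knockout-labelled library and 849 in wild type. In TE, 0 of 17 were called higher and 4 lower, beside 15.7% and 13.9% of all genes. The 4 were TBL1X, a beta-catenin partner that is also a subunit of the NCoR complex, at −1.51, the adaptor LDB1 at −1.27, the histone methyltransferase KMT2D at −0.82 and the arginine methyltransferase CARM1 at −0.65. TBL1X footprints numbered 19 in the knockout-labelled library and 63 in wild type.

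Among 15 other corepressors and antagonists, all measured in RNA, 1 was called higher and 5 lower (median −0.26), beside 16.2% higher and 17.8% lower over all genes. In footprints 13 were measured, with 1 higher and 5 lower (median −0.24), beside 19.0% and 20.1% over all genes. In TE 0 of 13 were called, beside 15.7% higher and 13.9% lower over all genes. CTBP1, a corepressor that acts with TCF and other factors, had 330 RNA reads in the knockout-labelled library and 853 in wild type (2.33-fold lower), and 135 footprints against 312 in wild type. NLK, a kinase that phosphorylates TCF/LEF factors, was 2.42-fold lower in RNA, and the histone deacetylase HDAC1 was 1.85-fold lower in footprints. CBY1, a beta-catenin antagonist, was the 1 called higher in footprints (118 in the knockout-labelled library and 75 in wild type). Within the Groucho family, TLE4 resembled TLE1, with 45 RNA reads in the knockout-labelled library and 136 in wild type (log2 −1.43, −1.96 to −0.95) and a footprint change of −1.41. TLE2 had 46 RNA reads in the knockout-labelled library and 29 in wild type and was called higher (log2 0.81, 0.12 to 1.54). The short family member AES was not called, at −0.12 in RNA and 0.15 in footprints.

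The listed genes that TCF/LEF complexes are known to control were mostly lower. This list was chosen with earlier results of these data known, so its counts beside the background are description only. Of 22 listed, 18 were measured in RNA, with 14 called lower and 1 higher (median −1.84), beside 17.8% lower and 16.2% higher over all genes. In footprints 17 were measured, with 12 lower and 2 higher (median −1.45), beside 20.1% and 19.0% over all genes. The Wnt antagonists DKK4 and APCDD1 and the helix-loop-helix inhibitor ID2 ranked first among those lower in RNA, at log2 −5.94, −3.95 and −3.50. EPHB2, an ephrin receptor of crypt cells, was the 1 called higher in RNA (205 reads in the knockout-labelled library and 143 in wild type), and in footprints EPHB3 was called higher too (41 reads in the knockout-labelled library and 18 in wild type). In TE, 5 of 17 were called higher and 2 lower, beside 15.7% and 13.9% over all genes. LEF1, with a TE change of 1.25 (0.80 to 1.69), lay between EPHB3 (1.19, 0.27 to 2.11) and TNFRSF19 (1.57, 0.18 to 2.95). The intervals of EPHB3 and TNFRSF19 are wide, and TNFRSF19 had 5 RNA reads in the knockout-labelled library and 47 in wild type. RNF43, APCDD1 and ASCL2 had 0.69, 0.83 and 0.60. AXIN2 and DKK1 were the 2 lower, at −0.64 and −0.78.

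**Figure D5:**
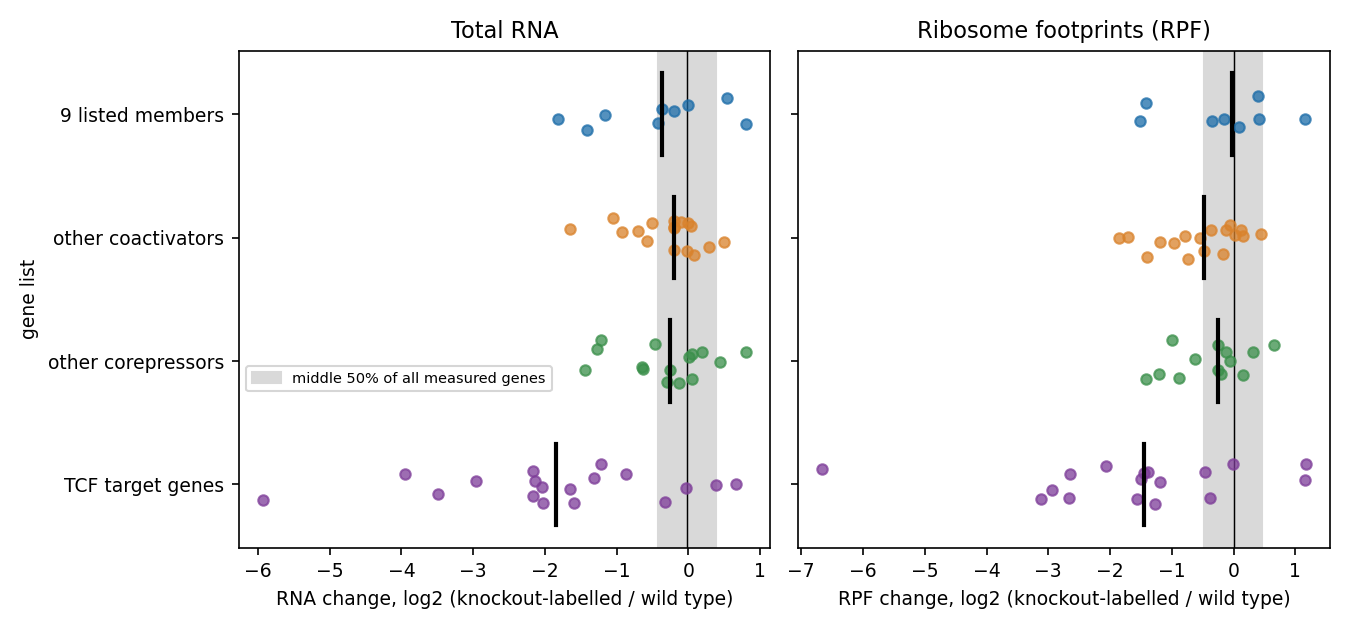
RNA change (left) and RPF change (right), log2 of knockout-labelled over wild type, of each measured gene in the 9 genes described, other coactivators, other corepressors and TCF target genes; black bars are medians, the grey band holds the middle 50% of all measured genes. The listed target genes have medians of −1.84 in RNA and −1.45 in footprints, while the 9 genes spread on both sides of the band. All lists were chosen with earlier results of these data known.

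Genes with the most similar pattern over the 4 libraries were sought among 9598 genes for the member whose RNA interval lay farthest below no change and the one farthest above, by Euclidean distance of centred log2 CPM. For TCF7 they were ISM1 (distance 0.216), LRRC75A (0.222) and MSI2 (0.254). MSI2, which encodes an RNA-binding protein, had 577 RNA reads in the knockout-labelled library and 1601 in wild type, and 164 footprints against 370 in wild type. For BCL9L they were KIAA1671 (distance 0.0694), the autophagy protease gene ATG4D (0.0883) and the deubiquitinase gene CYLD (0.0969). CYLD had 473 RNA reads in the knockout-labelled library and 300 in wild type, and 158 footprints against 110 in wild type. The distances rest on 4 libraries.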

How the data were processed

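The data are 4 libraries of 3 pooled plates each, 1 per genotype and kind, grouped by title. Per the labels' protocols, the linkers carried molecular identifiers and the cDNA was amplified by PCR. Tools named in the submitters' processing notes are HISAT2 2.1.0, Bowtie 1.1.2 and cutadapt 1.10, with GRCh38 as the build. The values the authors deposited are raw read counts per gene, with 1 listed transcript per symbol. How reads were assigned to genes (counter, annotation, region, shared reads, use of the molecular identifiers) was not given in the sources used here.

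Libraries of a kind were scaled by TMM in edgeR 4.0.16 (R 4.3.3); the ratio of effective sizes, knockout-labelled over wild type, was 0.900 for RNA and 1.00 for RPF. Changes are log2 ratios with a prior count of 0.5. RNA and RPF intervals are exact conditional (Clopper-Pearson) and TE intervals use the sum of reciprocal counts. With 0 residual degrees of freedom no test was made. The RNA and RPF call rules were run on simulated counts that held counting error only. This did not test them against PCR copies or variation between cultures. Alternatives included DESeq2 1.42.0 size factors. Positions and lengths are from GENCODE release 29 (GRCh38). Python 3.11.15, NumPy 2.4.6, SciPy 1.17.1, pandas 2.3.3 and matplotlib 3.10.9 were used. Named genes are the 9 members, CTNNB1, IGF2BP1 and 3 genes of most similar pattern for 2 members. Up to 3 called genes per direction and quantity of each list were also named, by the interval bound nearest to no change. CARM1, TNFRSF19, ASCL2, AES and PYGO1 were added after their values were seen. The members and lists were chosen with earlier results of these data known. Listed genes outside the counts given were not analysed here.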

Additional observations from a re-analysis of the deposited data

How the results depend on the processing

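Under the 5 alternatives that can move a value, the RNA, RPF and TE changes of the 9 genes stayed within their own counting intervals in 135 of 135 comparisons. These 4 other scalings (library totals, DESeq2 size factors, upper quartile, and leaving out MTRNR2L genes and PLCG2) and a prior count of 2 changed 0 member calls. A scaling moves all changes of a kind by the same amount, here small beside the intervals. The RNA change of LEF1, for example, was −1.157 in the main setting and −1.137 with library totals. The 135 comparisons are therefore a weak check. At 2-fold in place of 1.5-fold, 0 members were higher in RNA (BCL9L lost its call) and 1 in TE (PYGO2 lost its call), and over all genes 695 were higher and 908 lower in RNA, 881 and 967 in RPF, and 620 and 603 in TE. With a minimum of 200 reads, fewer genes entered: 1035 were higher and 1227 lower in RNA, 993 and 1080 in RPF, and 753 and 558 in TE, while 12 member values were no longer measured, leaving 2 members lower in RNA (TLE1 dropped out), 0 higher and 0 lower in RPF and 1 (LEF1) higher in TE. With a minimum of 20 reads, TCF7L1 entered and was called lower in RPF and, as the 1 member lower, in TE. Over all genes, 2285 were lower in RPF and 1590 in TE at that minimum. With no minimum the TCF7L1 calls were the same, beside 2538 genes lower in RPF and 1797 in TE. The numbers of genes measured under the changed minimums are not given here, so these counts cannot be read as shares. Per whole transcript length, LEF1 and TCF7 held 69.4% of the TCF/LEF level in knockout-labelled RNA and 81.3% in wild-type RNA, against 74.4% in knockout-labelled RNA and 84.6% in wild-type RNA per coding length, so the level share depends on the length used. No paired analysis was possible because each group has 1 library, and no library could be left out for the same reason. Depth limits TCF7L1 and TLE1 most, whose counts ranged from 3 to 68.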

Other observations

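The following genes of the coregulator lists, chosen after their values were seen had low or high footprint counts for their RNA. HIC1, a transcriptional repressor known to draw TCF7L2 away from its targets, had 906 RNA reads and 25 footprints in knockout-labelled cells, and 971 RNA reads and 14 footprints in wild-type cells. Its translational efficiency level, a log2 value minus the median of 10875 genes measured in RNA, was −4.75 in knockout-labelled cells (percentile 1.34) and −5.48 in wild-type cells (percentile 0.745). TBL1X stood at −3.51 in knockout-labelled cells (percentile 2.59) and −1.97 in wild-type cells (percentile 7.94). CTNNB1 was at the other end, at 1.54 in knockout-labelled cells (percentile 94.5) and 1.93 in wild-type cells (percentile 98.9).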
